A study of Caenorhabditis elegans with 2 samples.

Results

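The ceh-32 locus of Caenorhabditis elegans was examined for binding of its own protein, CEH-32. The gene (WBGene00000453) lies on the minus strand of chromosome V at 11701764 to 11705400 on build ce11, with 1 annotated transcript of 5 exons. All peaks with a summit within 20 kb of its transcript start, at 11705400, were taken from 4 deposited lists. There were 6 such peaks of the 412 in the thresholded optimal list and 20 of the 10485 in the pooled relaxed list, which holds peaks and background before the reproducibility threshold. The relaxed lists of the replicates held 25 of 14069 peaks for replicate 1 and 16 of 14710 for replicate 2.

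The study profiled CEH-32 by chromatin immunoprecipitation and sequencing with an anti-GFP antibody. Whole hermaphrodites at the fourth larval stage (L4), collected 52 hours after synchronisation as starved first-stage larvae, made up its 1 group of 2 biological replicates. Strain OP516 carries unc-119(tm4063) and the transgene wgIs516, from which CEH-32 with a C-terminal GFP-FLAG tag is stably expressed. Both replicates share these alleles, so no comparison between conditions was possible. A transgene with sequence of this locus and the chromosomal copy map to the same coordinates, so binding to the 2 copies, and a higher DNA copy number, cannot be told apart in these lists. No source used here gives the extent or copy number of the transgene, and no control library was analysed here. Whole worms were used, so the cells in which a site was bound are unknown.

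CEH-32 carries a homeodomain of the sine oculis class and is related to vertebrate SIX3 and SIX6. Proteins of this class bind DNA through the homeodomain and act with partners such as EYA, or with corepressors, in the development of head structures and sense organs. In the worm, ceh-32 is required for normal morphogenesis of the head, where the PAX6 gene vab-3 acts upstream of it.

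The 6 optimal peaks are shown first by their sequence, since they are the positions held in the authors' list thresholded for reproducibility. A place in that list does not mean that each replicate had a summit close by, as described further on. Each line gives 50 bp on each side of the pooled summit, on build ce11 and on the minus strand, so that it reads in the direction of ceh-32 transcription. Capitals mark TGATAC, a core known for homeodomains of the sine oculis class. They also mark AGGGTCCG and AGTATCG, 2 runs picked by comparing these same windows and described further on.
6593 bp upstream (chrV:11711943-11712043): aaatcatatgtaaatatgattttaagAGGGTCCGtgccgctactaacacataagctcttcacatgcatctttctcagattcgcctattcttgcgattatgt
2255 bp upstream (chrV:11707605-11707705): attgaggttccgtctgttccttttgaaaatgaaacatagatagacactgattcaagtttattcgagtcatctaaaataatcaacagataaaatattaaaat
1151 bp upstream (chrV:11706501-11706601): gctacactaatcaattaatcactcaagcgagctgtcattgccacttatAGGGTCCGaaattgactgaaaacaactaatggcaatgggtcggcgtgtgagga
281 bp upstream (chrV:11705631-11705731): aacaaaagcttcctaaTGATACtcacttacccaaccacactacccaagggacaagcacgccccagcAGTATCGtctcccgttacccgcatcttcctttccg
634 bp downstream (chrV:11704716-11704816): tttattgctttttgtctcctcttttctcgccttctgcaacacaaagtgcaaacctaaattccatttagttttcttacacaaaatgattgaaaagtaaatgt
1527 bp downstream (chrV:11703823-11703923): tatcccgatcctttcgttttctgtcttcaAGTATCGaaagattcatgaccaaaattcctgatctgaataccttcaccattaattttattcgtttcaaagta

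The strongest peak of the locus lay inside ceh-32, in intron 1. Its summit was 634 bp downstream of the start, and its region ran from 11704686 to 11704859. The peak signal, a value of the authors, reached 359 with replicates pooled, against 223 for replicate 1 and 135 for replicate 2 alone. The scale of the signal differs between lists, so ranks within a list are given beside it. The peak ranked 7 among the 10461 nuclear peaks of the pooled list, 3 among 14045 in replicate 1 and 16 among 14687 in replicate 2. It was the strongest peak of the locus in all 3 lists. Intron 1 is 513 bp long, and the summits of the replicates in it were 13 bp apart. The pooled region was 174 bp wide, against a median of 420 bp. Regions below that median width made up 0.583% of the nuclear pooled peaks but 23 of the 25 strongest. In replicate 1 the region of the intron 1 peak was 161 bp wide (median 430 bp). In replicate 2 it was 420 bp wide, the median of that list.

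The second peak inside the gene lay in intron 3, with its summit 1527 bp downstream of the start (11703663 to 11704082). The pooled signal was 115, with 54.1 for replicate 1 and 58.0 for replicate 2. These values placed it among the top 1.49%, 1.55% and 1.31% of the nuclear peaks of those lists, so the replicates gave it nearly the same rank. Intron 3, of 903 bp, is the longest of the 4 introns of ceh-32. No optimal summit lay in an exon of the gene.

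Upstream of ceh-32, 3 optimal peaks lay in the 4368 bp that separate it from the neighbouring gene tre-3, which encodes a trehalase. The nearest had its summit 281 bp upstream of the start (11705471 to 11705890), with a pooled signal of 130.2 and signals of 52.1 for replicate 1 and 74.6 for replicate 2. The next, 1151 bp upstream (11706341 to 11706760), had 195, 92.9 and 100.1 in the same order of lists, and was among the top 0.363%, 0.342% and 0.231% of their nuclear peaks. Both were found in each replicate, with summits 5 and 20 bp apart.

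The last peak of this interval, 2255 bp upstream (11707445 to 11707864), differed between the replicates. It had a signal of 86.4 in the pooled list and 78.0 in replicate 2, where it ranked 71. Replicate 1 held no summit within 100 bp of it, and its nearest summit was 913 bp away. This was the weakest of the 6, close to the lowest signal of the nuclear optimal peaks, 81.6. Of the other 382 nuclear optimal peaks, 91.9% had a summit of each replicate within 100 bp, 19 had one in replicate 1 alone and 11 in replicate 2 alone.

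The farthest optimal peak lay 6593 bp upstream, inside an intron of tre-3 (11711783 to 11712202). The pooled signal was 207, with 86.5 for replicate 1 and 107.5 for replicate 2. Only the intron 1 peak was stronger in the pooled list and in replicate 2, and only that peak and the one 1151 bp upstream in replicate 1. The replicate summits were 16 bp apart. The start of tre-3 was 3910 bp from the pooled summit and was nearer to it than that of ceh-32. Assignment of this peak to either gene is therefore not given by its position.

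**Figure D1:**
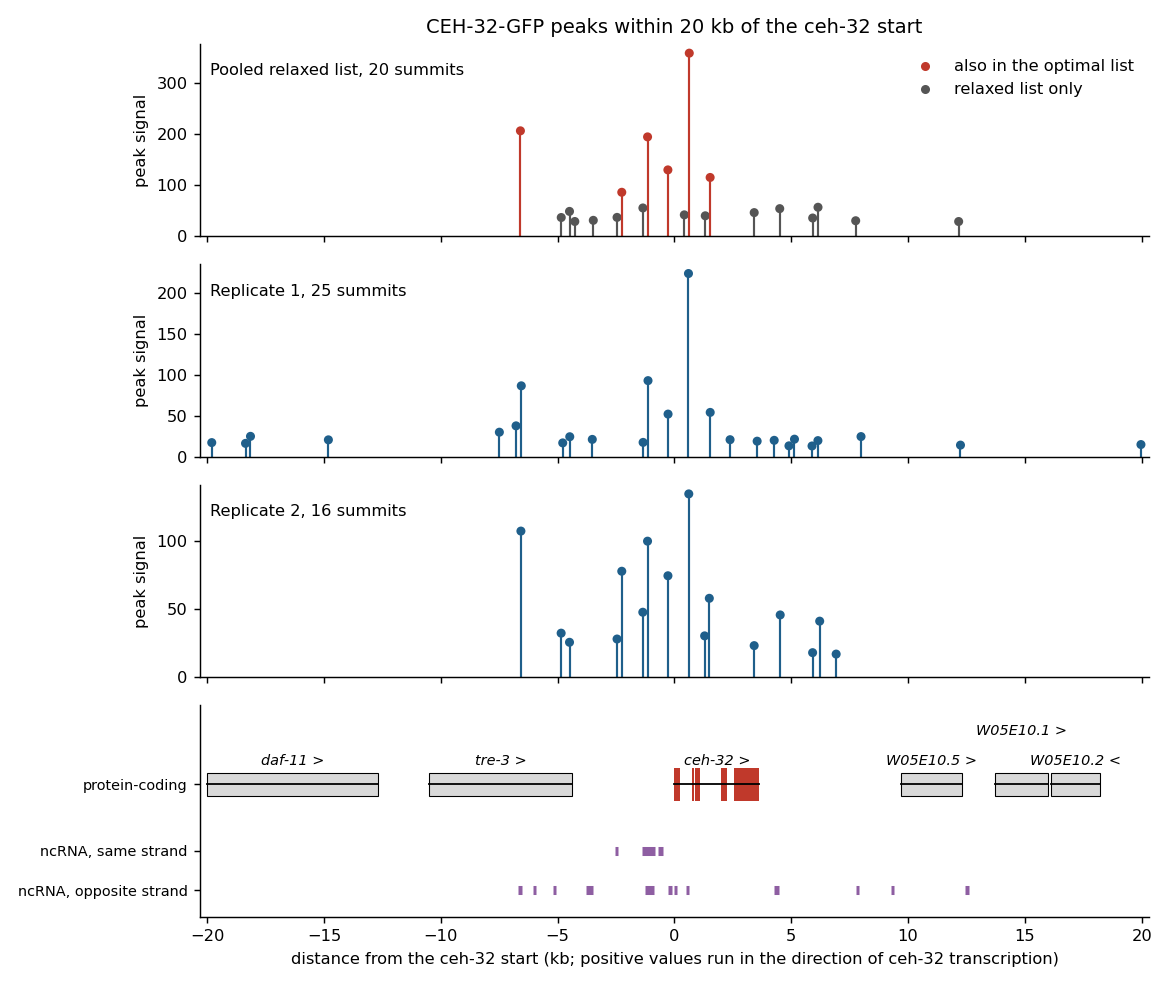
Peak signal (authors' units, with its own scale in each list) at every summit within 20 kb of the ceh-32 start, in the pooled relaxed list and in each replicate, against distance from the start in kb. The bottom panel shows the genes, with ceh-32 exons as red blocks, an arrowhead after each name for the direction of transcription and purple bars for ncRNA genes. The tallest line in each list is the intron 1 peak (359, 223 and 135), and 5 of the 6 optimal peaks stand out in both replicates.

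The other 14 pooled peaks of the locus were in the relaxed list only. Their signal ran from 29.2 to 57.1 with a median of 38.8. All were below the weakest optimal peak there, 86.4, but this was fixed by how the lists relate. That optimal peak ranked 332 among the nuclear peaks of both lists, so every nuclear pooled peak above it was optimal. The −log10 q of the 14 relaxed-only peaks ran from 0.037 to 1.38, against the single value of 2.18 given to all 6 optimal peaks. The strongest 2 were 6144 bp downstream, between genes beyond the 3′ end of ceh-32 (57.1), and 1351 bp upstream (55.7). The next, 4506 bp downstream, reached 54.4. In replicate 2 these 3 had signals of 41.2, 47.8 and 45.8 and were among the top 3.73%, 2.25% and 2.62% of nuclear peaks. In replicate 1 the first 2 had 19.7 and 17.6, among the top 26.3% and 38.7%, and no summit lay within 100 bp of the last of them. The first 2 thus ranked far higher in replicate 2 than in replicate 1.

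Many pooled summits of the locus, weak and optimal ones together, lay in close pairs. Of the 20 pooled summits, 12 (60%) lay within 250 bp of another summit, against 10.2% of the other 10441 nuclear pooled peaks. The share was 32% in replicate 1 (12.7% elsewhere) and 37.5% in replicate 2 (11.7% elsewhere). Among the optimal summits alone it was 0 of 6 (4.71% elsewhere). These shares were not adjusted for the density of summits, higher at the locus than elsewhere, which by itself makes close pairs likelier. The closest pooled summits, 1151 and 1351 bp upstream, were 200 bp apart with overlapping regions. Merging overlapping regions left 13 distinct regions. In the 3′ end of the gene, 1 pooled summit fell in the 3′ untranslated part of exon 5, 3413 bp downstream, with a signal of 46.6. In tre-3, besides the optimal peak, summits lay 4492 bp upstream in a coding exon (49.0) and 4846 bp upstream in an intron (37.0). The outermost pooled summit, 12164 bp downstream (29.2), was in the 3′ untranslated region of W05E10.5, a protein-coding gene downstream of ceh-32.

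More of the pooled peaks at the locus than elsewhere had a summit of each replicate. A summit of each replicate lay within 100 bp of 10 of the 20 pooled peaks, or 50% (exact 95% binomial interval 27.2% to 72.8%), against 24.2% of the other 10441 nuclear pooled peaks. Among the 6 optimal peaks it was 5 (83.3%, 35.9% to 99.6%), against 91.9% of the other optimal peaks. Among the 14 relaxed-only peaks it was 5 (35.7%, 12.8% to 64.9%), against 21.6%. Optimal peaks made up 6 of the 20 pooled peaks here and 382 of the other 10441. Of the remaining 10 pooled peaks, 2 had a summit in replicate 1 alone, 5 in replicate 2 alone and 3 in neither. Of the 25 summits of replicate 1, 10 (40%) had one of replicate 2 within 100 bp, against 17.7% of its other nuclear peaks. For replicate 2 it was 10 of 16 (62.5%), against 16.9%. Peaks of a locus share reads and neighbours and are not replicates, so these shares are descriptions with no test. The intervals cover counting error only, as if peaks were independent, and do not test a difference. Nor were the shares adjusted for the density of summits, higher here than elsewhere, which makes a match within 100 bp likelier.

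The replicates differed in how far their weak summits reached. All 16 summits of replicate 2 lay between 6572 bp upstream and 6921 bp downstream. Replicate 1 held 19 summits within 8 kb and 6 farther out. Of these, 4 were in coding exons of daf-11, which encodes a membrane guanylyl cyclase of sensory neurons, from 14812 to 19804 bp upstream, with signals of 16.4 to 24.9. The other 2 were 12242 and 19966 bp downstream. In all, 13 of the 25 summits of replicate 1 had no counterpart within 100 bp in replicate 2 or the pooled list. The strongest of these 13 lay in introns of tre-3, 6780 bp upstream (signal 37.7, top 3.85%) and 7494 bp upstream (30.0, top 7%). Of the 16 summits of replicate 2, 1 had no counterpart in replicate 1 or the pooled list.

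**Figure D2:**
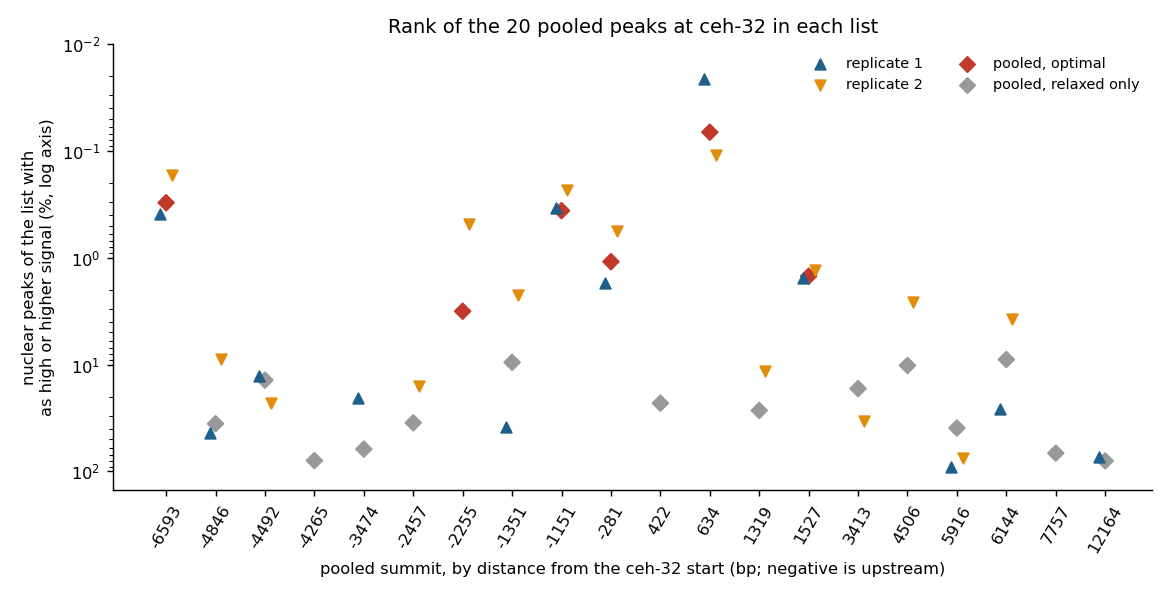
For each of the 20 pooled summits, ordered along the locus by distance from the ceh-32 start in bp, the share of nuclear peaks of the list with as high or higher signal (log axis, highest rank at the top). Diamonds are the pooled list, triangles are a replicate's summit within 100 bp, and a missing triangle means that there was none. The intron 1 summit at 634 bp ranks highest in every list, and the optimal peak at 2255 bp upstream has no symbol for replicate 1.

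The pooled peaks formed a compact cluster, with no pooled summit for a long way on either side. The 20 pooled summits spanned 18757 bp, and 19 of them lay within 8 kb of the start. Farther out, no pooled summit lay in the next 51033 bp upstream or the next 43261 bp downstream. Gaps between neighbouring pooled summits at least this long made up 4.12% and 5.91% of the 1625 gaps on chromosome V. In replicate 2 the stretches with no summit were 46418 bp upstream and 19648 bp downstream. Gaps at least as long made up 1.84% and 12.4% of those on chromosome V in that list. In replicate 1, whose outermost summits were weak, the stretches were 8634 and 5228 bp, and 30.9% and 45.8% of gaps were as long. For optimal summits they were 52539 and 182231 bp, and 63% and 46.3% of gaps were as long. In bins of 10 kb counted from the start, the bin upstream of ceh-32 held 10 pooled summits and the bin downstream 9. The other 2087 bins of chromosome V held 0.77 on average and at most 7. Optimal summits numbered 4 and 2 in these bins, against at most 2 in any other bin of the chromosome. In replicate 1 the bins held 9 and 10 summits, against at most 9 elsewhere on the chromosome. In replicate 2 they held 8 each, a count reached or exceeded in 4 other bins, with a maximum of 11.

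**Figure D3:**
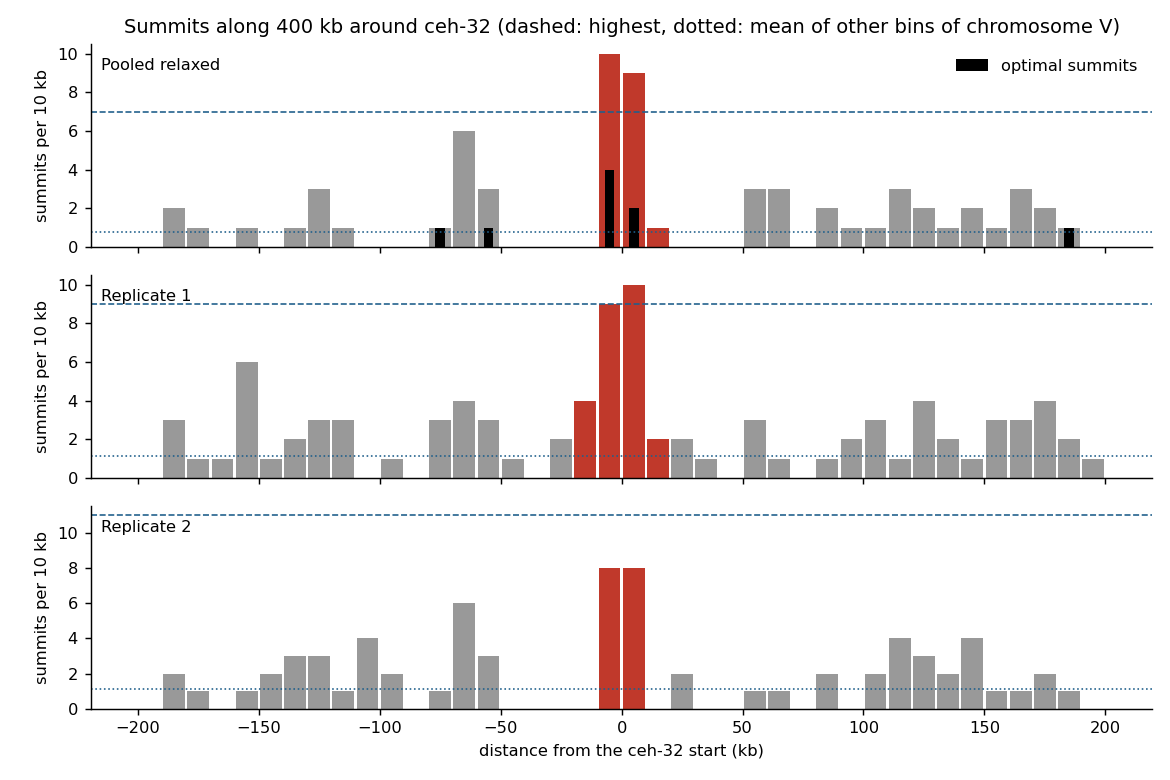
Summits per 10 kb bin from 200 kb upstream to 200 kb downstream of the ceh-32 start, for the pooled list (optimal summits in black), replicate 1 and replicate 2. Red bars are the bins within 20 kb. The dashed line is the highest and the dotted line the mean of the other bins of chromosome V, and the pooled bins of 10 and 9 summits next to the start stand above the dashed line at 7.

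No gene over 40 kb away had as many optimal summits around it as ceh-32. Over 19973 nuclear protein-coding genes, 12.6% had at least 1 optimal summit within 20 kb of their start, and 0.015% had 6 or more. Those at 6 were 3 genes that share the same peaks, ceh-32 and its neighbours tre-3 and W05E10.5. Among genes over 40 kb away the highest count was 4, reached at 6 genes. Of these, F41D9.2 on chromosome X had a strongest pooled signal of 184. The others lie close together on chromosome II, each with a strongest pooled signal of 117. Among them is gpb-1, which encodes a G protein beta subunit. For the pooled relaxed list, 90.3% of genes had at least 1 summit within 20 kb, with a median of 3 over the genes other than ceh-32. A count of 20 or more was reached by 0.0501%, 10 genes in 5 stretches of the genome. The highest count was 23, at pro-1, where only 1 summit was optimal and the strongest pooled signal was 100.5. The count of 25 in replicate 1 was reached or exceeded at 0.02% of other genes and the count of 16 in replicate 2 at 1.03%.

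**Figure D4:**
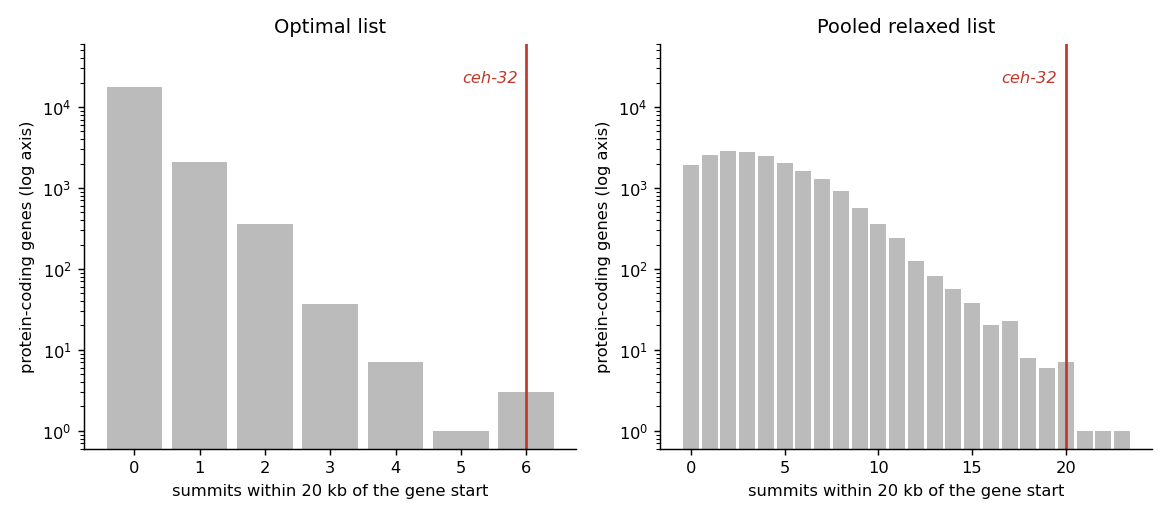
Number of protein-coding genes (log axis) by the number of summits within 20 kb of their start, for the optimal and the pooled relaxed list. The red line marks ceh-32, at 6 optimal and 20 pooled summits, and the bar at 6 optimal summits holds ceh-32 and 2 neighbours that share its peaks.

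By the sum of absolute differences of the 4 counts, the genes most like ceh-32 and over 40 kb from it and from each other were R166.2 (difference 9), W06H8.6 (12), ipgm-1 (13), ncl-1 (14) and zmp-5 (15). They matched it in relaxed peaks rather than in optimal ones. The rule favours this, since only 1 of the 4 counts was of optimal peaks. No gene over 40 kb away had more than 4 optimal summits. R166.2 had 21 pooled summits but 1 optimal one, and its strongest pooled signal was 100.5. W06H8.6 had 17 pooled and 3 optimal summits with a strongest signal of 161, the highest of the 5, against 359 at ceh-32.

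The related and upstream genes had fewer peaks around them than ceh-32, as nearly all genes did. The median over genes other than ceh-32 was 3 pooled summits, and 12.6% of all genes had at least 1 optimal summit. Of the other sine oculis class genes, unc-39 had 1 optimal and 9 pooled summits within 20 kb (strongest signal 131), while ceh-33 and ceh-34, which are neighbours, each had 0 and 6 (69.7). The EYA gene eya-1 had 0 optimal and 3 pooled summits (36.4), and vab-3 had 0 and 5 (38.8). At unc-119, whose mutation the strain carries, there were 0 optimal and 6 pooled summits with a strongest signal of 44.7.

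The bound stretch overlapped a group of short noncoding RNA genes of no stated function. The annotation places 15 ncRNA genes, 6 protein-coding genes and 1 piRNA gene within the 20 kb windows. The summits of 4 of the 6 optimal peaks (66.7%) were inside ncRNA genes, against 54 of the other 382 nuclear optimal peaks (14.1%). The intron 1 summit was in W05E10.8, the one 281 bp upstream in W05E10.12, the one 1151 bp upstream in W05E10.13 and W05E10.15, which overlap on opposite strands, and the one in tre-3 in W05E10.9. For the pooled list it was 7 of 20 summits (35%), against 3.74% of the others. Such genes covered 7.17% of the 20 kb windows but 25.6% of the 8121 bp from the first to the last optimal summit, where the optimal peaks lie.

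The hexamer TGATAC, on either strand, was found at few of the summits. It lay within 50 bp of 2 of the 20 pooled summits (10%), against 2.83% of the other 10441. Over whole peak regions it was 10%, against 10.7%. Of the 6 optimal summits it was near 1, the one 281 bp upstream, shown above. The other match was at the relaxed-only peak 4506 bp downstream. The whole 40 kb around the start held 25 copies of TGATAC, most of them away from any optimal summit. GAGAGA, the repeat frequent at other peaks of this experiment (9.91% of the other summits), was near 0 of 20, and a count of 0 there allows up to 15%. TAATTA was near 2 of 20 (6.34% elsewhere). TGATAA, which shares its first 5 bases with TGATAC, was near 1 of 20 (7.01% elsewhere), again the peak 4506 bp downstream. None of these 3 was near an optimal summit of the locus. The median GC content of the 101 bp windows was 38.1% over the 20 pooled summits of the locus and 38.6% over the other pooled peaks. Over the 6 optimal summits it ran from 27.7% to 51.5%.

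Shared sequence runs among the 6 optimal windows were short. No hexamer of 2080 was in more than 3 of them, and 6 hexamers, mostly of A and T, were in 3. There were 17 runs of 7 or 8 bases that 2 of the windows shared, leaving out those inside a longer shared run, and none was in more windows. No such count was made for other sets of 6 windows, so 17 cannot be called many or few. They were in 0.0192% to 12.1% of the other pooled windows, and all were found only once the windows had been compared. The rarest was AGGGTCCG. It lay 1 bp from the summit at 1151 bp upstream and 21 bp from that at 6593 bp upstream, and these were its only 2 copies in the 40 kb, out of 387 in the nuclear genome on either strand. Among the other 10441 pooled windows it was in 2, at a peak 589 bp from the start of sor-1 (signal 141.5) and a peak 49 bp from that of R09F10.3 (46.7). The run AGTATCG, which shares the bases GTATC with the complement of TGATAC, lay 19 bp from the summit at 281 bp upstream and 18 bp from the intron 3 summit. It was in 0.402% of the other windows. Of its 4 copies in the 40 kb, the other 2 lay 340 bp and 12575 bp from the nearest optimal summit, and the nuclear genome held 5255. The other run of 8 bases, CGAATAAA, was shared by the window 2255 bp upstream and the intron 3 window and was in 0.536% of the others. A match of letters is a description and does not show which protein is bound there. The window of the strongest peak, in intron 1, held no TGATAC, and the runs it shared with other windows were in 3.3% to 12.1% of the other pooled windows.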

How the data were processed

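Peak lists were deposited by the authors for 2 builds, ce11 and ce10. For each there was a relaxed list of peaks and background per replicate and for pooled replicates, and an optimal list thresholded by irreproducible discovery rate, per the file names and the deposited list of files. The signal of each peak and the −log10 of its q-value were deposited by the authors and used as given. The aligner, peak caller and use of a control are not stated in the labels or files used. No read counts are held, so depth is unknown. The ce10 lists were not used here, as no coordinate was converted.

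Summits on ce11 were placed against the same assembly (WBcel235, Ensembl release 115). Lists were matched by summits within 100 bp. Ranks and backgrounds cover nuclear chromosomes. With 1 group of 2 replicates, no test was run, and counts stand beside the same counts over all other genes or peaks. Counting and matching were tested on simulated data. Settings varied were window size, transcript start, overlap rule, stronger peaks alone, each replicate alone, gene thinning, matching distance and summit window. Merging of overlapping regions and the shared sequence runs were added after seeing the data. Named genes were ceh-32, genes in its window that hold or are nearest to a summit, the sine oculis class, EYA and PAX6 loci, unc-119 and the 5 genes nearest in counts. The choice of gpb-1, F41D9.2, pro-1, sor-1 and R09F10.3 followed their values. The locus, lists and hexamers were chosen with earlier results of these data known. Computation used pandas 2.3.3 and numpy 2.4.6 in Python 3.11.15, intervals came from SciPy 1.17.1 and plots from matplotlib 3.10.9.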

Additional observations from a re-analysis of the deposited data

How the results depend on the processing

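Of 51 other settings tried, 35 left the value within 1.5 times the count or within the interval of the share given. The setting that took any transcript start could not change a count, since ceh-32 has 1 annotated transcript. The count of 6 optimal peaks was 5 or 6 in the 7 settings tried on it, that setting included. The pooled count of 20 fell to 13 when overlapping regions were merged, a setting chosen after seeing the data, and the count of 25 in replicate 1 was 12 within 5 kb. The share of other protein-coding genes with as many pooled summits as ceh-32, 0.0451%, was 0% within 5 and 10 kb and 1.71% within 40 kb. It was 0.01% with peaks above the median signal of the list, 0.0902% with genes thinned to 1 per 40 kb and 0.606% with merged regions. Over either replicate alone it was 0.02% to 1.03%, the higher value without replicate 1. For optimal summits the share was 0.01%, with 0% within 5 and 10 kb and 0.0551% within 40 kb. The intron 1 peak was among the top 0.0669% of nuclear pooled peaks and the top 0.0214% to 0.109% of a replicate's. The share of pooled peaks found in both replicates was 75% by overlap of regions, where it was 41.7% for the others. GAGAGA was in 20% of whole peak regions, against 29.2% of the others. With depth unknown and 2 replicates, no weak peak here can be called absent from a replicate.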
